A study of Mus musculus with 12 samples.

Results

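Nr4a1, Nr4a2 and Nr4a3 encode the 3 receptors of the NR4A subfamily of nuclear receptors. They were taken from the deposited expression table of whole mouse lung by gene symbol, and all 3 were found among its 23127 genes. All 3 passed the requirement of a mean of at least 1 CPM (the count of a gene scaled to the total of its library), as did 15562 genes in all. They were chosen by symbol with their measured levels in the 3 groups already known, that is, with the low Nr4a3 of the treated lungs in view. So the levels and the differences between groups are given as a description, without a test.

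The lungs came from 12 C57BL6/J mice, flash frozen, with 1 library per mouse and 4 mice in each of 3 groups. The 0-week control mice were untreated. The other groups received L-NAME, an inhibitor of nitric oxide synthase, at 0.5 g/L in the drinking water together with a high-fat diet of 60% lipid, for 2 or for 5 weeks. L-NAME and the diet were always given together. The untreated mice were those of 0 weeks, so treatment and time on study cannot be told apart. The labels used here give neither the age and sex of the animals nor the control diet. The study uses the 2 treatments as a model of heart failure with preserved ejection fraction.

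NR4A receptors are orphan receptors. Their ligand-binding pocket is filled by bulky side chains, so their activity follows mainly from how much receptor a cell makes. The genes are immediate early genes, switched on within the hour by cAMP and protein kinase A acting through CREB, by calcium acting through calcineurin, NFAT and MEF2, and by growth factors, inflammatory signals and mechanical stress. The receptors bind the NGFI-B response element as monomers, and Nr4a1 and Nr4a2 also pair with the retinoid X receptors. Nr4a1 (Nur77) is known in blood for its role in the survival of patrolling nonclassical monocytes, Nr4a2 (Nurr1) for dopamine neurons, and Nr4a3 (Nor1) for its induction in vascular smooth muscle and endothelium.

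The promoters are shown because the NR4A genes are switched on through CREB, and the results turn on members that did not move together between groups. The sequences are RefSeq promoters of GRCm38.p6, read 5′ to 3′ on the strand of the gene and ending before the RefSeq start of the gene. Capitals mark TGACG, the core of the cAMP response element, or its reverse complement CGTCA. The Nr4a1 window is chr15:101266596-101266845 on the plus strand and lies inside the longer GENCODE M21 gene span, in no exon. The Nr4a2 window is chr2:57124004-57124253 on the minus strand. The Nr4a3 window is printed for chr4:48045055-48045152 on the plus strand, up to the first base of the GENCODE M21 gene.
Nr4a1: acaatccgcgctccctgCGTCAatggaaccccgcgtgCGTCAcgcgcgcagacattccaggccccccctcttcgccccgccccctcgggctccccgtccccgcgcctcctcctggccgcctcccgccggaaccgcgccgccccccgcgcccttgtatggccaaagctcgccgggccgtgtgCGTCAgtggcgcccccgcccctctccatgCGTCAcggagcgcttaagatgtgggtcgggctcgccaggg
Nr4a2: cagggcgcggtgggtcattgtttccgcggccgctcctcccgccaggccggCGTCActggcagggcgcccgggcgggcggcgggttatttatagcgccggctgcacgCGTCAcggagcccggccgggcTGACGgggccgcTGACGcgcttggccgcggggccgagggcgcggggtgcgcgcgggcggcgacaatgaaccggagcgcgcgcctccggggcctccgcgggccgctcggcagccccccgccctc
Nr4a3: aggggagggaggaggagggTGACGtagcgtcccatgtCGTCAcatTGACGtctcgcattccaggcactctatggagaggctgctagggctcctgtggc

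Each of the 3 windows of 250 bases held 4 TGACG cores, counted on both strands. One of the 4 in Nr4a3 starts 147 bases before the RefSeq start, in the stretch that is not printed. At least 1 core was present in 17.7% of 32817 RefSeq promoter windows of the same length, and at least 4 were present in 45 of them (0.137%). In Nr4a1 each core was part of the AP-1-like motif TGCGTCA, of which the window held 4. That motif was present in 1.74% of windows, and no other window held 4. Nr4a2 and Nr4a3 held no TGCGTCA in their windows. The complete palindrome TGACGTCA (1.55% of windows), the NGFI-B response element AAAGGTCA (1.34%) and the CArG box of serum response factor (1.47%) had 0 matches in all 3 windows. These motifs were chosen after the sequences were seen, and a match is a description of letters, not a mapped binding site.

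Read depth, estimated from the spacing of low CPM values, lay between 25900000 and 34000000 reads per library. At that depth Nr4a3, the member with the lowest mean in treated lungs, corresponded to about 90 to 1100 reads per library. On the leading principal components of all genes, 3 libraries stood apart, 1 in each group: replicate 2 of the controls and replicate 3 of both treated groups. No gene among the 15562 tested passed an adjusted p of 0.05 in any of the 3 comparisons (limma on log2(CPM + 1), 0.0% of genes). That count depended on the weighting and on single libraries. Between the treated groups it was 881 with library weights and 386 without 2-week replicate 4. Between 2-week and control lungs it was 18 with library weights and 24 without 5-week replicate 3. At an unadjusted p under 0.05 there were 1438 genes when 2-week lungs were compared with controls (9.24%), 1343 when 5-week lungs were (8.63%), and 1696 between the treated groups (10.9%). The labels name separate mice, so the spread below is between animals.

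Nr4a3 was at a lower level in every treated lung than in any control lung. It is annotated as ENSMUSG00000028341, and the table places it on chromosome 4 from 48045153 to 48086447 on the plus strand. The table names no genome build for its positions. Those of Nr4a1 and Nr4a2 differ from GRCm38, although the submitters name mm10, so positions from the table cannot be set against the promoter windows above. In the control lungs, replicates 1 to 4, its level was 19.3, 31.1, 26.2 and 35.3 CPM. After 2 weeks it was 5.61, 9.25, 3.84 and 7.80 CPM. After 5 weeks it was 6.88, 12.03, 2.81 and 11.2 CPM. The highest treated lung thus remained under the lowest control, whereas the 2-week and 5-week lungs overlapped.

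Group means of Nr4a3 were 28.0 ± 6.87 CPM for the controls, 6.62 ± 2.38 CPM for the 2-week lungs and 8.23 ± 4.26 CPM for the 5-week lungs (SD, n = 4 each). The control mean was 4.23 times the 2-week mean and 3.41 times the 5-week mean. On the log2(CPM + 1) scale, which understates differences at low levels, the difference from control was -1.95 ± 0.35 (SE) at 2 weeks and -1.77 ± 0.35 at 5 weeks. Ranked by absolute log2 difference, Nr4a3 was number 5 of 15562 genes at 2 weeks and number 1 at 5 weeks. Both comparisons use the same 4 control lungs. Treated libraries lay entirely below the controls for 1.95% of genes at 2 weeks and 1.36% at 5 weeks, which is given as background, since Nr4a3 was chosen with these values known. Without the 3 libraries that stood apart, the log2 differences were -1.69 and -1.34. In bulk lung, fewer cells of a type that makes the transcript and less transcript per cell cannot be told apart.

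**Figure D1:**
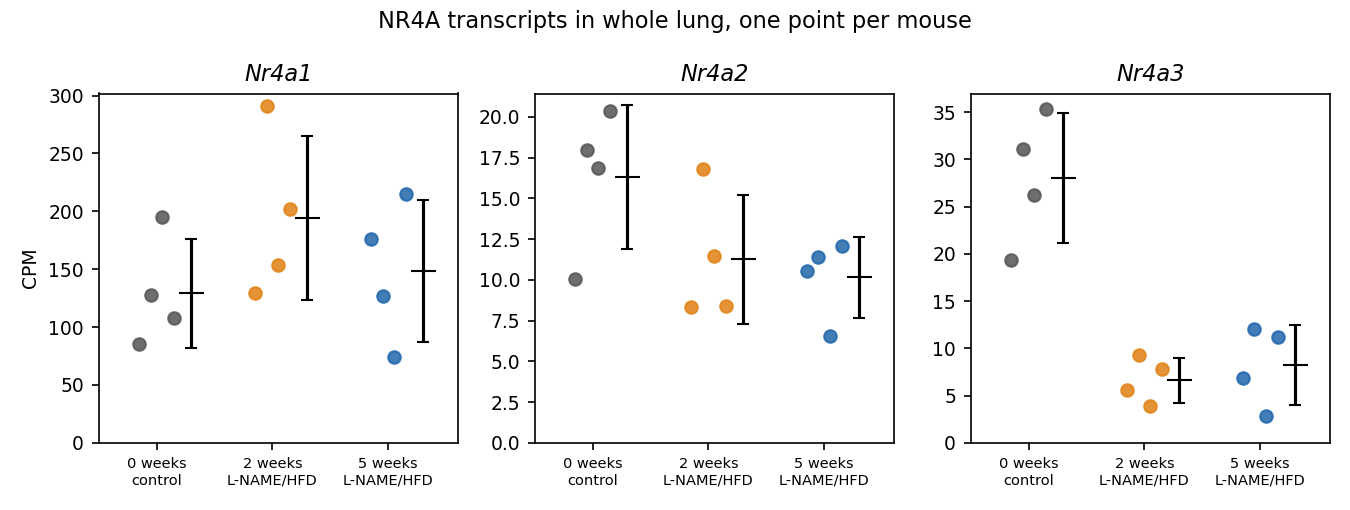
Levels of Nr4a1, Nr4a2 and Nr4a3 in CPM (vertical axis from 0, scaled separately for each gene) in control, 2-week and 5-week lungs. Each point is 1 mouse, in replicate order from left to right, and the bar beside the points is the mean ± SD (n = 4). All 8 treated lungs lie between 2.81 and 12.03 CPM for Nr4a3, below the control range of 19.3 to 35.3 CPM, and the groups overlap for Nr4a1 and Nr4a2.

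Nr4a1 did not share this pattern. It is annotated as ENSMUSG00000023034 on chromosome 15, from 101152150 to 101172676 on the plus strand in the table, where GENCODE M21 on GRCm38 has 101254269 to 101274795. Its level was 85.7, 128, 195 and 108 CPM in the controls, 130, 291, 154 and 202 CPM after 2 weeks, and 176, 127, 73.9 and 215 CPM after 5 weeks. The highest lung was a 2-week lung and the lowest a 5-week lung, and all 3 groups overlapped. Means were 129 ± 47.1, 194 ± 71.2 and 148 ± 61.2 CPM (SD, n = 4). The log2 difference from control was 0.58 ± 0.33 (SE) at 2 weeks and 0.16 ± 0.33 at 5 weeks. The 2-week difference was 0.368 without 2-week replicate 2. The 5-week difference took a negative sign when control replicate 1 (-0.015) or 5-week replicate 4 (-0.0562) was left out, so it has no settled direction. It was 0.472 without the 3 libraries that stood apart.

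Nr4a2 had lower means in both treated groups, with overlapping libraries. It is annotated as ENSMUSG00000026826 on chromosome 2, from 56996842 to 57014015 on the minus strand in the table, where GENCODE M21 on GRCm38 has 57106830 to 57124003. Its level was 10.1, 17.9, 16.9 and 20.4 CPM in the controls, 8.35, 16.8, 11.5 and 8.40 CPM after 2 weeks, and 10.6, 11.4, 6.53 and 12.1 CPM after 5 weeks. Control replicate 1, at 10.1 CPM, lay among the treated lungs, and 2-week replicate 2 lay among the controls. Means were 16.3 ± 4.41, 11.2 ± 3.97 and 10.2 ± 2.50 CPM (SD, n = 4). The log2 difference from control was -0.51 ± 0.25 (SE) at 2 weeks and -0.62 ± 0.25 at 5 weeks. Without the 3 libraries that stood apart, these differences were -0.478 and -0.389. Single libraries left out gave -0.711 to -0.395 at 2 weeks and -0.826 to -0.446 at 5 weeks. Between 5 and 2 weeks the differences were -0.43 ± 0.33 for Nr4a1, -0.11 ± 0.25 for Nr4a2 and 0.18 ± 0.35 for Nr4a3, and those of Nr4a2 and Nr4a3 changed sign when single libraries were left out. That of Nr4a1 was -0.131 with 5-week replicate 3 removed, -0.21 with 2-week replicate 2 removed and -0.641 with 5-week replicate 4 removed.

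Ratios within a library do not depend on how the library was scaled. Nr4a3 stood at 22.6, 24.3, 13.5 and 32.8 CPM per 100 CPM of Nr4a1 in the 4 controls. The 2-week lungs had 4.32, 3.18, 2.50 and 3.86, and the 5-week lungs 3.90, 9.46, 3.80 and 5.20. Every treated ratio was lower than every control ratio. The mean ratio was 23.3 ± 7.93 in controls, 3.46 ± 0.80 after 2 weeks and 5.59 ± 2.66 after 5 weeks (SD, n = 4). On the log2 scale the ratio differed from control by -2.71 at 2 weeks and -2.09 at 5 weeks, and leaving out any 1 library gave between -2.95 and -2.52 and between -2.38 and -1.91.

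Of the other ratios, that of Nr4a3 to Nr4a2 also set treated apart from control lungs, and that of Nr4a2 to Nr4a1 did so at 2 weeks. Per 100 CPM of Nr4a2, Nr4a3 stood at 155.5 to 192 CPM in controls, 33.5 to 92.9 after 2 weeks and 43.1 to 105.3 after 5 weeks, again without overlap between treated and control lungs. Per 100 CPM of Nr4a1, Nr4a2 stood at 8.67 to 18.9 CPM in controls and 4.15 to 7.45 after 2 weeks, without overlap. After 5 weeks it stood at 5.62 to 8.98, which overlapped the controls.

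**Figure D2:**
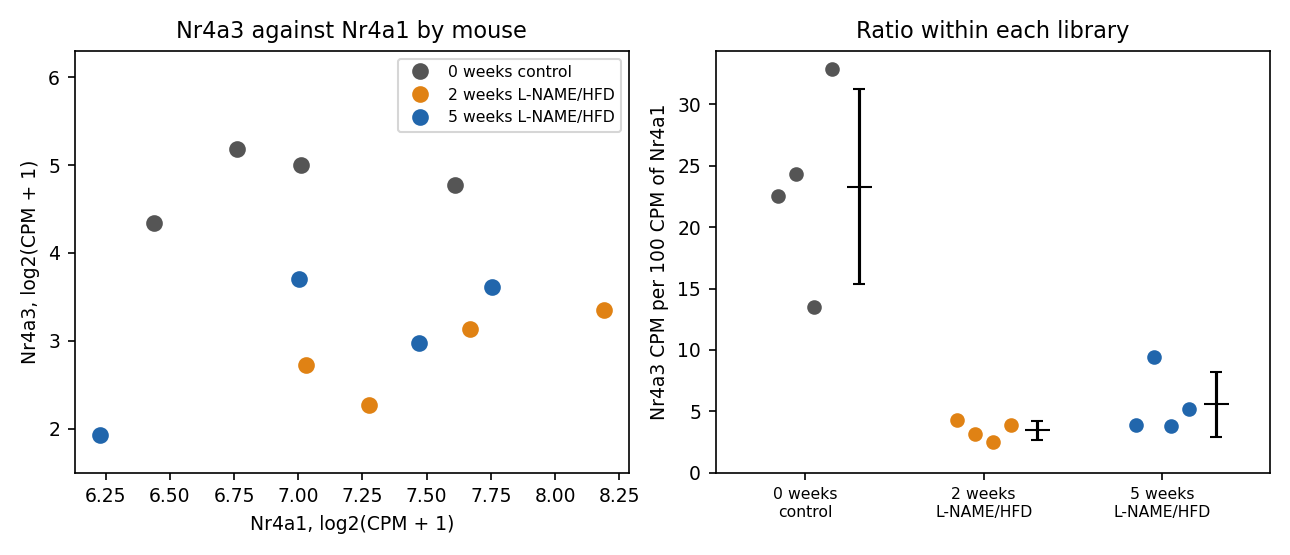
Left, Nr4a3 against Nr4a1 in each mouse, both as log2(CPM + 1). Right, Nr4a3 in CPM per 100 CPM of Nr4a1 in the same mice (points) with the mean ± SD of each group (bars, n = 4). The treated lungs span the Nr4a1 range of the controls but lie below them for Nr4a3, and their ratios of 2.50 to 9.46 lie below the control ratios of 13.5 to 32.8.

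Divided by the length of the merged annotated exons, the levels can be compared between genes. Nr4a1 was the most abundant member in each group, with 36.8 ± 13.4 CPM per kb in controls, 55.3 ± 20.3 after 2 weeks and 42.2 ± 17.4 after 5 weeks (SD, n = 4). In controls, Nr4a3 (4.68 ± 1.15 CPM per kb) and Nr4a2 (4.02 ± 1.09) overlapped, at 3.23 to 5.90 and 2.48 to 5.01. After 2 weeks Nr4a2 (2.06 to 4.13 CPM per kb) lay entirely above Nr4a3 (0.641 to 1.54). After 5 weeks their ranges of 1.61 to 2.98 and 0.469 to 2.01 CPM per kb overlapped, with the lower mean again that of Nr4a3 (1.37 ± 0.71 against 2.50 ± 0.62).

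Within the groups the 3 members varied together, a relation that the choice of the genes did not use. Because Nr4a3 separates treated from control lungs, correlations were computed on values from which each group mean had been removed, with an exact permutation test within groups. Pearson's r over 12 libraries was 0.708 for Nr4a1 and Nr4a2 (exact p = 0.0254, adjusted over 3 pairs 0.0381). It was 0.701 for Nr4a2 and Nr4a3 (exact p = 0.0172, adjusted 0.0381) and 0.672 for Nr4a1 and Nr4a3 (exact p = 0.0498, adjusted 0.0498). Spearman's rho was 0.65, 0.818 and 0.608 for these pairs, with adjusted exact p of 0.0582, 0.00456 and 0.0582. With the 2 libraries farthest from the median left out, r was 0.662, 0.442 and 0.608. In 6 of 12 libraries all 3 members deviated from their group means in the same direction. An r of this size was not particular to the NR4A genes. With group means removed, r was above 0.7 with Nr4a1 for 2.58% of all genes, with Nr4a2 for 4.45% and with Nr4a3 for 13.1%.

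One library carried much of the relation between Nr4a1 and Nr4a3. 5-week replicate 3 was the lowest of its group for all 3 members (73.9, 6.53 and 2.81 CPM). Without it the centred r of Nr4a1 and Nr4a3 was 0.416, against 0.585 for Nr4a1 and Nr4a2 and 0.564 for Nr4a2 and Nr4a3. Without all 3 libraries that stood apart, the values were 0.356, 0.626 and 0.75. Over the 8 treated libraries alone, r was 0.791 for Nr4a1 and Nr4a2, 0.645 for Nr4a1 and Nr4a3 and 0.618 for Nr4a2 and Nr4a3, with adjusted exact permutation p of 0.0667, 0.102 and 0.102, none of which passed.

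The NR4A genes were set beside the rest of the nuclear receptor superfamily, of which 34 other genes had a mean of at least 1 CPM. None of the 34 passed the adjusted threshold in any comparison. At 2 weeks their log2 differences from control ran from -0.29 (Pparg, the adipogenic receptor) to 0.34 (Pgr, the progesterone receptor). Ranked by absolute difference among the 37 tested receptors, Nr4a3 was number 1, Nr4a1 number 2 and Nr4a2 number 3. At 5 weeks the others ran from -0.32 (Esr1, estrogen receptor alpha) to 0.12 (Esrra), and Nr4a3, Nr4a2 and Nr4a1 were numbers 1, 2 and 7. The 2-week and control libraries did not overlap for 2 of the 34 (5.32% of all genes), namely Vdr, the vitamin D receptor, at 0.31 ± 0.12, and Nr1i2, the pregnane X receptor, at 0.28 ± 0.14. At 5 weeks 1 of the 34 did not overlap (5.01% of all genes), namely Rxrb, a retinoid X receptor (0.09 ± 0.06). Leaving libraries out can raise such a count but never lower it, and the share of all genes at those settings is not given here. The count at 2 weeks was 5 without control replicate 3. It was 4 without 2-week replicate 4, without the 3 libraries that stood apart or under median-of-ratios scaling. The count at 5 weeks was 3 without control replicate 3. It was 2 without control replicate 1 or 4, without 5-week replicate 2 or 4, or without the 3 libraries. Nr1i2 was singled out after its values were seen. It lay near the limit of 1 CPM, at 0.94 ± 0.10 CPM in controls and 1.38 ± 0.34 CPM after 2 weeks (SD).

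**Figure D3:**
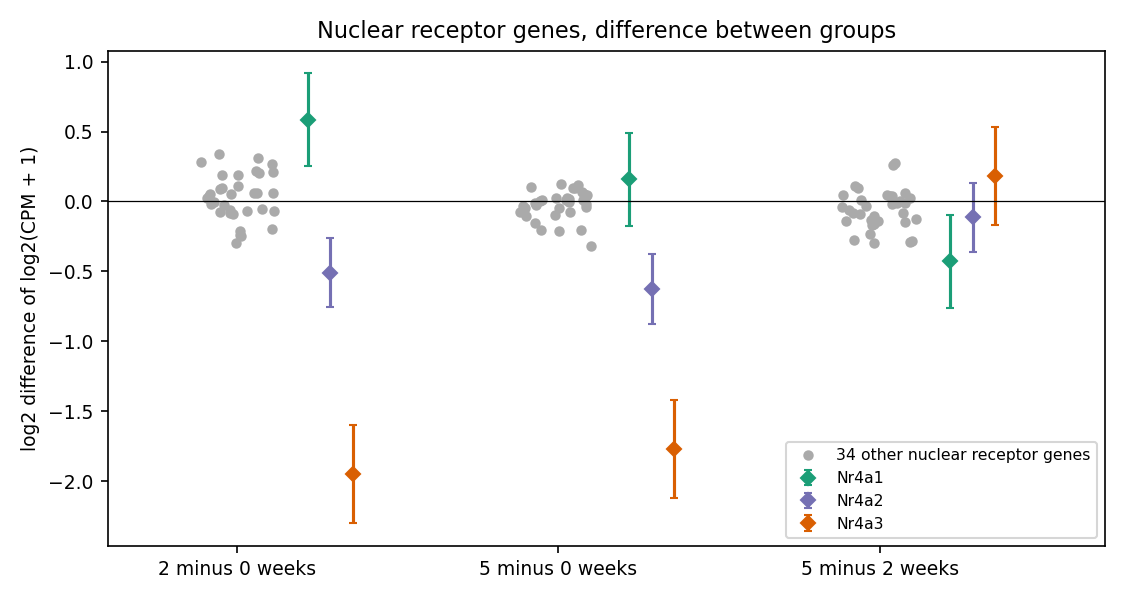
Difference between groups on the log2(CPM + 1) scale (vertical axis) for 34 other nuclear receptor genes (grey points, spread sideways at random) and for the 3 NR4A genes (diamonds with SE). In the 2 comparisons with control, Nr4a3 lies at -1.95 and -1.77, while the grey points stay between -0.32 and 0.34.

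Genes of the pathways around the NR4A receptors came from 8 lists chosen for this purpose, of which 115 genes were tested. The lists were chosen with earlier results of these data known. Their counts beside the share of all genes, here and below, are therefore a description. None passed the adjusted threshold in any comparison. At an unadjusted p under 0.05, 14 were higher (5.72% of all genes) and 13 lower (3.52%) at 2 weeks, and 10 were higher (5.84%) and 9 lower (2.79%) at 5 weeks. Between 5 and 2 weeks 3 were higher (6.18%) and 5 lower (4.72%), and 5 did not overlap (4.94%). Treated and control libraries did not overlap for 14 of the 115 at 2 weeks and 12 at 5 weeks, where 5.32% and 5.01% of all genes did so. Leaving libraries out can raise such a number but never lower it, and the share of all genes at those settings is not given here. The rises below therefore do not show a dependence on particular mice. Without control replicate 3 the number was 29 at 2 weeks and 19 at 5 weeks. At 2 weeks it was 24 without 2-week replicate 4 and 23 without control replicate 1. Without 5-week replicate 2 it was 19 at 5 weeks. Without the 3 libraries that stood apart it was 23 at 5 weeks. The 5 genes between 5 and 2 weeks became 15 without 2-week replicate 4 or 5-week replicate 3, 8 to 10 without 2-week replicate 2 or 3 or 5-week replicate 1 or 4, and 23 without the 3 libraries.

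Upstream, most genes listed for the cAMP arm had lower means, by small amounts. The list also holds genes that restrain the arm, such as Sik2, so these means give no direction for the arm. Of the 14 genes, 11 had a lower mean at 2 weeks and 10 at 5 weeks. The median log2 difference was -0.06 and -0.04, beside 0.02 over all genes. Prkacb, a catalytic subunit of protein kinase A, stood at 133 ± 4.03 CPM in controls and 118 ± 8.12 CPM after 2 weeks (log2 difference -0.17 ± 0.07, limma adjusted p = 0.462). Sik2, a kinase that keeps CREB coactivators out of the nucleus, had a log2 difference of -0.47 ± 0.25 at 5 weeks (adjusted p = 0.619), which was -0.245 without 5-week replicate 3, -0.283 without control replicate 2, and -0.0522 with the 3 libraries that stood apart removed. In the calcium, MEF2 and SRF arm, 11 of 18 genes were lower at 2 weeks and 13 at 5 weeks, with medians of -0.04 and -0.05.

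Hdac4, a class IIa histone deacetylase that represses MEF2, was the member of that arm with the smallest p in both comparisons. It stood at 43.7 ± 2.80 CPM in controls, 36.4 ± 2.18 after 2 weeks and 36.9 ± 4.07 after 5 weeks, without overlap between controls and either treated group. Its log2 differences were -0.26 ± 0.09 (limma adjusted p = 0.41) and -0.24 ± 0.09 (adjusted p = 0.543), the latter -0.132 when the 3 libraries that stood apart were removed. With predicted genes and the other NR4A genes left out, Hdac4 was also the gene whose level followed that of Nr4a3 most closely over all libraries, as given further on.

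Among the 14 partners and coregulators, Kdm1a, the demethylase of the CoREST complex that Nr4a2 recruits, had log2 differences of 0.14 ± 0.06 at 2 weeks and 0.10 ± 0.06 at 5 weeks, without overlap (limma adjusted p = 0.494 and 0.653). The list's medians were -0.04 and -0.02.

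The AP-1 and EGR genes are immediate early genes like the NR4A genes, and their means lay opposite to that of Nr4a3. Of 15 tested, 14 had a higher mean than control at 2 weeks (median log2 difference 0.72) and 14 at 5 weeks (median 0.59), where the median over all genes was 0.02. At 2 weeks 6 of the 15 were higher without overlap (3.37% of all genes), and at 5 weeks 3 were (3.65%). None passed the adjusted threshold. Fos stood at 120 ± 46.2 CPM in controls, 281 ± 92.9 after 2 weeks and 254 ± 46.8 after 5 weeks, with log2 differences of 1.27 ± 0.31 and 1.16 ± 0.31 (limma adjusted p = 0.224 and 0.452). Fosb stood at 9.78 ± 1.13, 23.7 ± 6.60 and 19.6 ± 6.21 CPM, with 1.16 ± 0.22 and 0.89 ± 0.22 (adjusted p = 0.124 and 0.379). The count of 14 was the same with the 3 libraries that stood apart removed, with any single library removed, and under median-of-ratios scaling.

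The exception among the 15 was Fosl2, which encodes the AP-1 subunit Fra-2 and was singled out after its values were seen. It stood at 115 ± 19.5 CPM in controls, 80.6 ± 10.7 after 2 weeks and 87.1 ± 24.8 after 5 weeks, with overlapping libraries and log2 differences of -0.50 ± 0.19 and -0.43 ± 0.19 (limma adjusted p = 0.47 and 0.575). Over the 12 libraries Fosl2 was the only AP-1 or EGR gene with r above 0.7 with Nr4a3 (r = 0.908) or with Nr4a2 (r = 0.838). That was 1 of 15 in each case, where 4.72% of all genes exceeded 0.7 with Nr4a3 and 3.77% with Nr4a2. With group means removed, 2 of 15 exceeded 0.7 with Nr4a3 (13.1% of all genes) and 3 with Nr4a2 (4.45%). Over the 12 libraries, 7 of 15 had r above 0.7 with Nr4a1, where 1.2% of all genes did. That number was 3 without control replicate 1, 2 without 2-week replicate 2, 11 without control replicate 2, and 12 with the 3 libraries that stood apart removed. The median r of the list was 0.666 with Nr4a1, -0.161 with Nr4a2 and -0.465 with Nr4a3. With group means removed it was 0.665, 0.489 and 0.446, all positive. These correlations share the 12 libraries and are a description.

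The CREB target genes divided. Of 16 tested, 8 were higher and 8 lower at 2 weeks, and 5 were higher and 11 lower at 5 weeks. Fos and Fosb are on this list too. On the lower side, Crem, which encodes the inducible repressor ICER, stood at 16.3 ± 4.21 CPM in controls and 11.3 ± 1.06 CPM after 2 weeks, without overlap (log2 difference -0.46 ± 0.14, limma adjusted p = 0.389), and at 13.8 ± 1.31 CPM after 5 weeks. Irs2, the insulin receptor substrate, was at -0.33 ± 0.15 at 2 weeks without overlap (adjusted p = 0.525) and had r = 0.867 with Nr4a3. Over the 12 libraries Sik1 had r = 0.788 with Nr4a1, 0.765 with Nr4a2 and 0.433 with Nr4a3. With group means removed these were 0.858, 0.903 and 0.788. Crem, Irs2 and Sik1 were singled out after their values were seen.

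**Figure D4:**
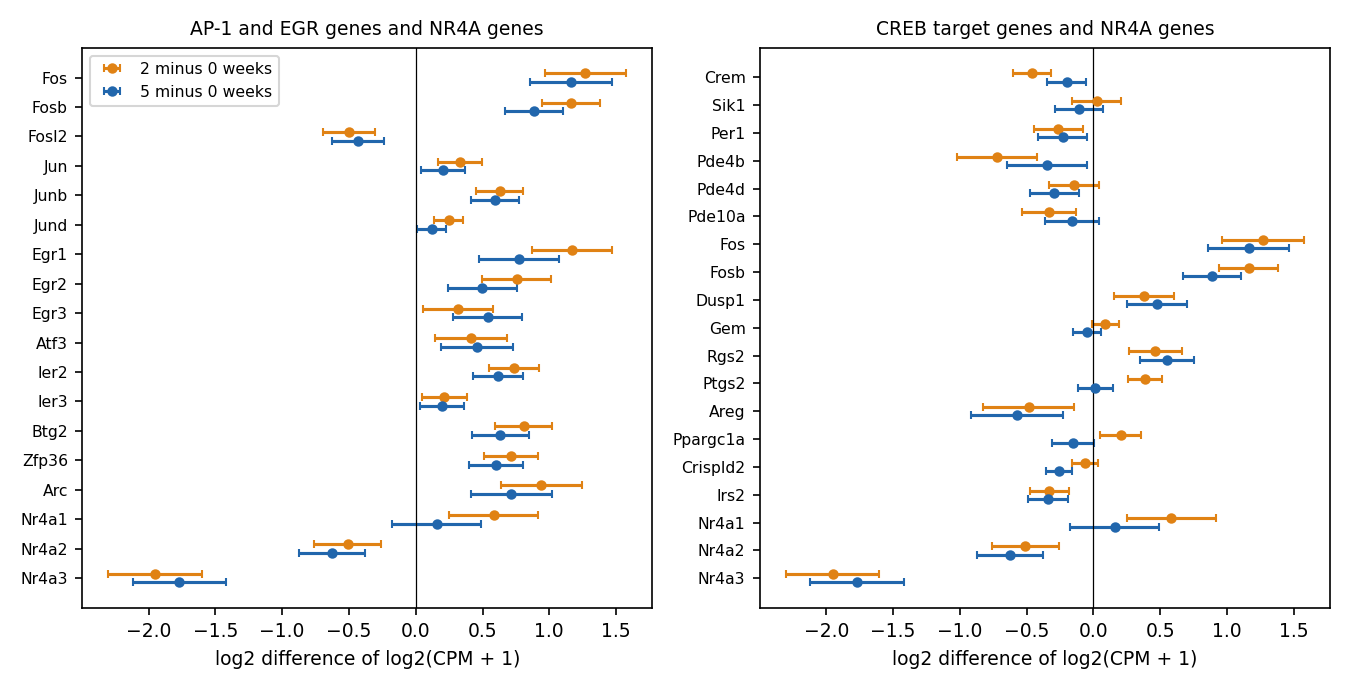
Log2 difference from control (horizontal axis, log2(CPM + 1) scale, points with SE) at 2 weeks (orange) and 5 weeks (blue) for AP-1 and EGR genes (left) and CREB target genes (right), with the NR4A genes at the bottom of both panels. On the left, 14 of 15 genes other than the NR4A genes lie above 0 and Fosl2 lies below, and Nr4a3 lies farthest to the left in both panels.

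Reported NR4A target genes showed no common direction. Of 17 tested, 7 were higher and 10 lower at 2 weeks (median log2 difference -0.06), and 8 were higher and 9 lower at 5 weeks (median -0.00403). Havcr2, which encodes the checkpoint receptor TIM-3, was at -0.41 ± 0.14 at 2 weeks (limma adjusted p = 0.425). Spp1, osteopontin, was at 0.70 ± 0.29 at 5 weeks (adjusted p = 0.554), and at 0.468 without control replicate 1. Eno3, a muscle enolase, was at 0.97 ± 0.66 at 2 weeks (adjusted p = 0.643), and at 0.09 without 2-week replicate 3.

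Glucocorticoid response genes and clock genes were included because the NR4A genes respond to both systems. Of 10 glucocorticoid response genes, 7 were lower at 2 weeks (median log2 difference -0.30) and 6 at 5 weeks (median -0.19). Map3k6 stood at 73.5 ± 5.19 CPM in controls, 32.4 ± 8.86 after 2 weeks and 41.2 ± 8.46 after 5 weeks, without overlap (log2 difference -1.19 ± 0.18 and -0.84 ± 0.18, limma adjusted p = 0.0835 and 0.302). Zbtb16, the zinc finger protein PLZF, stood at 124 ± 54.4 CPM, 19.4 ± 7.56 CPM and 83.0 ± 46.9 CPM, with -2.60 ± 0.41 at 2 weeks (adjusted p = 0.0835). Fkbp5, a chaperone of the glucocorticoid receptor, was at -1.335 ± 0.22 at 2 weeks and -1.07 ± 0.22 at 5 weeks, without overlap (limma adjusted p = 0.0835 and 0.245). Of 17 clock genes, 11 were lower at 2 weeks and 14 at 5 weeks, and Bhlhe40, a repressor of the clock, was at -0.21 ± 0.08 at 2 weeks (adjusted p = 0.44). The hour of tissue collection is not given in the labels.

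The genes most like each member over the 12 libraries differed between members. Predicted genes and the members themselves were left out of this ranking. Among the highest Pearson r with Nr4a1 were those of Klhl17 (0.934), Jun (0.888), Mib2 (0.886) and Sh3tc1 (0.871). With Nr4a2 the highest were Prkce (0.911), the clock gene Per1 (0.900), Phlpp1 (0.899), Mras (0.898) and Cpeb2 (0.893). With Nr4a3 they were Hdac4 (0.949), Picalm (0.936), the growth factor gene Fgf2 (0.936), Maff (0.931) and Timp3 (0.929). All r above 0.7 numbered 187 genes for Nr4a1 (1.2%), 586 for Nr4a2 (3.77%) and 734 for Nr4a3 (4.72%). The 5 genes like Nr4a3 also had r between 0.808 and 0.903 with group means removed, where 13.1% of genes exceeded 0.7 with Nr4a3, 4.45% with Nr4a2 and 2.58% with Nr4a1.

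Markers of lung cell types were measured in the same libraries, and their part in the NR4A values was not tested. For 9 of 11 marker lists the summed level overlapped between all groups. The B cell list summed to 92.9 to 160 CPM in controls and 177 to 368 CPM after 5 weeks. The smooth muscle list summed to 986 to 1130 CPM in controls, 1130 to 1720 CPM after 2 weeks (all above the controls) and 885 to 1100 CPM after 5 weeks. The endothelial list, of cells in which Nr4a3 is inducible, summed to 3490 to 4390, 4020 to 4410 and 3520 to 4320 CPM. Of 9 markers of nonclassical monocytes, the cells that depend on Nr4a1, 7 were higher at 5 weeks than in controls and 6 were so without overlap (3.65% of all genes), while the sum of the list was 1520 to 1730 CPM in controls and 1360 to 1690 CPM after 5 weeks. Most of that sum is Ace, which endothelium also makes, at 1365 to 1612 CPM in controls and 1141 to 1500 CPM after 5 weeks. Overlapping sums do not mean equal levels. At an unadjusted p under 0.05, all 7 red cell markers (median log2 difference 1.45) and all 6 neutrophil markers (median 1.17) were higher at 5 weeks than in controls, where 5.84% of all genes were. At 2 weeks all 6 neutrophil markers had lower means (median -0.54), with 0 at an unadjusted p under 0.05. Adipocyte markers summed to between 34.6 and 1500 CPM in the controls, against 23.0 to 143 CPM in treated lungs. No marker was at 0 in all libraries.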

How the data were processed

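The authors deposited 1 table of CPM values for the 12 libraries, with an offset of 0.0001 in each cell. Per the submitters' processing notes, the tools were TopHat2 and Partek and the build mm10, without versions. How strand and annotation were handled is not given in the sources used here. Low values lay within 0.1 of a whole step for 87.8% to 88.4% of cases, so reads were not recovered and no count model or counting interval was used.

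The scale was log2(CPM + 1), and 15562 genes whose mean reached 1 CPM were tested. Limma 3.58.1 in R 4.3.3, tested on simulated data, fitted 1 mean per group over 12 libraries with a variance trend. Two-sided tests were adjusted by the Benjamini-Hochberg method at 0.05 over all genes. Correlations used exact permutation within groups (13824 orders) or 100000 permutations over all libraries. The rest was done in Python 3.11.15 with pandas 2.3.3, scipy 1.17.1, numpy 2.4.6 and, for plots, matplotlib 3.10.9. Replicates are numbered in accession order within a group.

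The NR4A genes and the lists were chosen with earlier results of these data known. From each list and comparison, the rule names up to 3 passing genes per direction, or else the 2 with the smallest p, and 5 genes most like each NR4A gene by Pearson's r, leaving out predicted genes. Among the genes so named, 1 is left out of the text and not reported here. Alternatives were pseudocounts of 0.1 and 5, no filter, median-of-ratios scaling, library weights, only the 2 groups compared, and each library left out. A fit without the 3 libraries that stand apart was added after seeing the data. Sequences are RefSeq GRCm38.p6 promoters for all 3 genes. Exon lengths are from GENCODE M21.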

Additional observations from a re-analysis of the deposited data

How the results depend on the processing

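The log2 differences of Nr4a3 from control kept their sign under every alternative, with single libraries left out giving -2.11 to -1.75 at 2 weeks and -1.99 to -1.40 at 5 weeks. For Nr4a1 at 5 weeks the range was -0.0562 to 0.453, negative without control replicate 1 (-0.015) or 5-week replicate 4 (-0.0562). Between 5 and 2 weeks, Nr4a2 ranged from -0.227 to 0.082, positive without 2-week replicate 2 (0.082), 5-week replicate 3 (0.0637) or the 3 libraries that stand apart (0.0892). Nr4a3 ranged from -0.0349 to 0.556, negative without 2-week replicate 3 (-0.0183) or 5-week replicates 2 (-0.0349) or 4 (-0.00311). The pooled r of Nr4a1 and Nr4a2 (0.342) was 0.708 with group means removed and -0.136 without the 2 farthest libraries. That of Nr4a1 and Nr4a3 (-0.00152) was 0.672 and -0.358. The cause of these changes was not tested.

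The count of genes of the pathway lists past the adjusted threshold of limma was 0 in the main fit for each comparison. At 2 weeks it was 3 of 115 with library weights (18 of all 15562 genes, 0.116%), and 0 to 4 when single libraries were left out, with 4 without 5-week replicate 3 (24 of all genes, 0.154%). Between 5 and 2 weeks it was 4 of 115 with library weights, where 881 of all genes passed (5.66%). Among the 34 other nuclear receptors it was 0 to 1, with 1 between 5 and 2 weeks without 2-week replicate 4, where 386 of all genes passed (2.48%). Map3k6 (-1.11, adjusted p = 0.0186) and Zbtb16 (-2.62, adjusted p = 0.0232) at 2 weeks passed with library weights. Fosb (1.16) passed at 2 weeks without 5-week replicate 3 (adjusted p = 0.0491). No paired analysis was possible because the replicate numbers follow accession order and the mice of the groups are different animals. Depth limits the members little, since Nr4a3 had at least about 90 reads in each library.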
